A study of Homo sapiens with 18 samples.

Results

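The genes described are 10 histone lysine demethylases of the JmjC class: KDM2A, KDM2B, KDM3A, KDM3B, KDM4A, KDM4B, KDM4C, KDM5B, KDM6B and KDM7A. They were chosen as named members of this class, with earlier results of these data known. Other JmjC-domain genes, among them KDM5A, KDM5C and KDM6A, were left out of the 10 and counted separately. Each of the 10 was found under 1 Ensembl identifier among the 61806 genes of the count table. All 10 passed the filter on low counts, as did 19743 genes in all. The RNA came from HepG2, a human hepatoma line, unedited (WT) or carrying the APOA4-KO genotype, and poly(A) RNA was sequenced. APOA4 encodes apolipoprotein A-IV, a lipid-carrying protein secreted by intestine and liver. Each line was sampled without hypoxia (0 h) and after 24 h and 48 h in hypoxia at 1% oxygen; each line and time has 3 libraries, 18 in all. The APOA4-KO line was made with Cas9 and a pair of guides directed to exons 1 to 3 of APOA4, and clones grown from single colonies with both alleles mutated were used; the labels do not say which clone or clones were sequenced. A difference between the lines therefore holds the edit together with anything else that sets the edited cells apart. No cells were kept without hypoxia for 24 h or 48 h, so low oxygen and time in culture cannot be told apart. Nothing in the labels says that the 3 libraries of a group came from separate cultures, so p-values measure the spread between these libraries, which may be technical.

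JmjC demethylases remove methyl groups from histone lysines in a reaction that consumes molecular oxygen and 2-oxoglutarate and needs iron in its ferrous form. The enzymes differ in the lysine they act on: KDM3A and KDM3B act on mono- and dimethylated H3K9, KDM4A to KDM4C on trimethylated H3K9 and H3K36, KDM2A and KDM2B on the lower methylation states of H3K36, KDM5B on methylated H3K4, KDM6B on methylated H3K27, and KDM7A on lower states of H3K9 and H3K27. Several of their genes are known targets of hypoxia-inducible factor (HIF), the transcription factor that accumulates when oxygen is low.

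Libraries held 76481820 to 91604947 counts, and the log2 CPM values (TMM-scaled counts as a rate of library size) of replicates of a group correlated at 0.966 to 0.977. The edited gene gave counts in every library: APOA4 had 755, 799 and 702 counts in HepG2 at 0 h and 662, 702 and 607 in APOA4-KO at 0 h, and at 48 h it had 1775, 1673 and 1968 counts against 551, 648 and 607. Counts over a whole gene do not show whether small insertions or deletions are present. HIF targets checked the hypoxia label: of 15 listed genes, 14 rose in HepG2 at 24 h and 15 at 48 h, and 15 rose in APOA4-KO at each time. Among all tested genes 11.4% and 13.1% rose in HepG2 and 21.5% and 23.9% in APOA4-KO. Before hypoxia every listed gene but EGLN1 was already higher in APOA4-KO than in HepG2, against 12.9% of all genes. CA9 (log2 1.67), PFKFB4 (1.05) and P4HA1 (1.02) differed most. The 10 hepatocyte markers summed to between 57733 and 86217 CPM in every library. The 6 fibroblast markers summed to 104 to 163 CPM, the 4 endothelial markers to 8.45 to 16.1 and the 6 leukocyte markers to 1080 to 2850, or to 38.2 to 81.4 without LYZ (lysozyme). In each line the hepatocyte sum was lower at 0 h than at 24 h or 48 h (57733 to 58376 against 74417 to 75170 and 64964 to 65367 CPM in HepG2; 66005 to 67087 against 83607 to 86217 and 79279 to 81972 in APOA4-KO), and the leukocyte sum moved likewise, from 1080 to 1092 CPM in HepG2 at 0 h to 2780 to 2850 in APOA4-KO at 48 h. The part of these markers in the results below was not tested. In bulk RNA, fewer cells of a kind and less RNA per cell cannot be told apart.

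Levels were compared between genes in FPKM, which is per length, as the authors deposited it. The lengths implied by counts and FPKM ran from 5300 bases for KDM4A to 25475 for KDM5B. These are near all annotated exon bases of the 2 genes (5172 and 25882). The order of genes and the shares within a family depend on the lengths used. In HepG2 at 0 h KDM4A had the highest FPKM of the 10 (10.7 to 10.8), although by counts KDM5B (5667 to 5971) was above KDM4A (4617 to 4746). Next in FPKM came KDM3B and KDM2A (8.86 to 9.44), whose libraries overlapped, then KDM2B, KDM6B and KDM4B. KDM3A and KDM5B (2.73 to 2.85) overlapped as well, and KDM4C (1.62 to 1.88) and KDM7A (1.13 to 1.25) were lowest. In APOA4-KO at 48 h the order was different: KDM3A led (13.6 to 13.9 FPKM), KDM3B and KDM6B followed with overlapping libraries, KDM2A, KDM7A and KDM4B lay between 10.2 and 11.6, and KDM4A and KDM4C, again overlapping, were lowest (3.20 to 3.85). Summed over the 10 genes, HepG2 had 54.7 ± 0.31 FPKM before hypoxia (mean ± SD, n = 3), 52.5 ± 0.92 after 24 h and 67.8 ± 1.1 after 48 h. The APOA4-KO sum was 53.5 ± 0.23 before hypoxia, 78.8 ± 1.3 after 24 h and 88.8 ± 0.75 after 48 h, so the lines began close together and were apart at both later times.

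**Figure D1:**
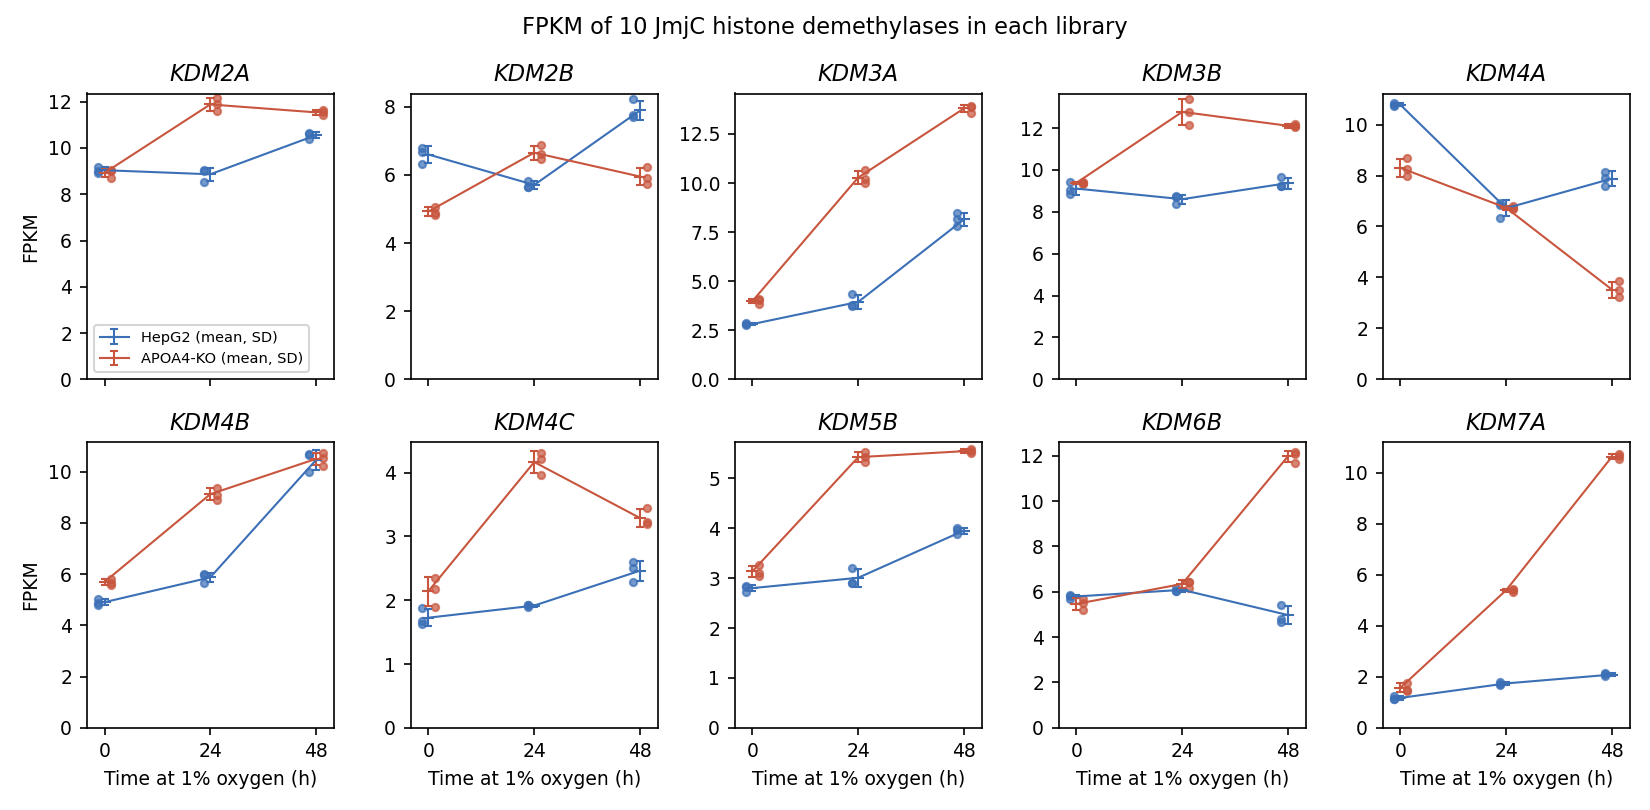
FPKM (y axis, from 0) of each demethylase against time at 1% oxygen (x axis, hours); points are libraries, lines join group means and bars are the SD of 3 libraries, blue for HepG2 and red for APOA4-KO. KDM7A ends at 10.5 to 10.7 FPKM in APOA4-KO and at 2.02 to 2.15 in HepG2, and KDM4A falls to 3.22 to 3.85 FPKM in APOA4-KO at 48 h.

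The promoters of these genes were examined because HIF binds the core letters ACGTG or GCGTG. RefSeq windows of 300 bases on GRCh38.p14, from 250 before to 50 after a transcript's start, were matched for 10 of the 10 genes, 16 windows in all. ACGTG or GCGTG stood on either strand in 13 of these windows, covering 9 genes, against 48.4% of all 35116 windows; ACGTG alone stood in 4 of the 16 windows, each of a different gene, against 21.4% of all windows. KDM3B was the gene with no match. Genes with several windows have more chances of a match, and a match is a run of letters and no evidence of binding. The 2 KDM3A windows overlap and hold the same match, so that site counts in both. The windows printed are those of the genes that rose most (KDM7A and KDM3A), of the KDM4 genes that rose (KDM4B and KDM4C) and of KDM4A, which fell, with capitals for each match on either strand, where matches that overlap form 1 longer run. They lie at chr7:140176934-140177233 (minus strand) for KDM7A, chr2:86441121-86441420 (plus strand) for the first of the KDM3A windows, chr19:4968863-4969162 (plus strand) for KDM4B, chr9:6757723-6758022 (plus strand) for KDM4C and chr1:43649899-43650198 (plus strand) for KDM4A.
KDM7A: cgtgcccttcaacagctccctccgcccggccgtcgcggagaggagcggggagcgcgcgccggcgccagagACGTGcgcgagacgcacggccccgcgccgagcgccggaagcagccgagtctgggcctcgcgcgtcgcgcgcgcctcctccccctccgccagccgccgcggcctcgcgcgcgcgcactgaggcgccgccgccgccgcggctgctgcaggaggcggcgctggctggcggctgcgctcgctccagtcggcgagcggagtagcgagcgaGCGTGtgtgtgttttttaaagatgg
KDM3A: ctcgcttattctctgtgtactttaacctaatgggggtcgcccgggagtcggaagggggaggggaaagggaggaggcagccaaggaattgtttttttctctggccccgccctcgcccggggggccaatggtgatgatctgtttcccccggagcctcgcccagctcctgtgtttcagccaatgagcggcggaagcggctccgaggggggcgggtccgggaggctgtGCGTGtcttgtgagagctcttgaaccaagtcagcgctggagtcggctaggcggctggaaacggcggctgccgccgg
KDM4B: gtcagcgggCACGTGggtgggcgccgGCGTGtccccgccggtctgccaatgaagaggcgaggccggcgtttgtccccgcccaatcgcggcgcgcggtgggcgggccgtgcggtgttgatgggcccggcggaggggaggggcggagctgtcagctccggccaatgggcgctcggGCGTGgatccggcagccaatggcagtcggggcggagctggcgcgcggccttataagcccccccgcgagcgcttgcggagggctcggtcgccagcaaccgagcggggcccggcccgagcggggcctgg
KDM4C: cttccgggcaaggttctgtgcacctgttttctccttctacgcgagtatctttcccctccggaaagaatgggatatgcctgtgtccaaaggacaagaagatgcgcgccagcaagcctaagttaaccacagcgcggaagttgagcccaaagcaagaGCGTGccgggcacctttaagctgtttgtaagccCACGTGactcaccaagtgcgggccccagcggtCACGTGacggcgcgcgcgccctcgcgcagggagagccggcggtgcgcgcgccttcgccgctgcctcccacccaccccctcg
KDM4A: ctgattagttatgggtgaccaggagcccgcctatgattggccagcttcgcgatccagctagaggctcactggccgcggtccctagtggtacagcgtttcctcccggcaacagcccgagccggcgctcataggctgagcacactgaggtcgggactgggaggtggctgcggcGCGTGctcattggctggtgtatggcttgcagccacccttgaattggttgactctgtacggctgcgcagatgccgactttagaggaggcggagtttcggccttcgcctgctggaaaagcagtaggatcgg
KDM4C held 5 matches and KDM4B 4, where a CACGTG counts as a match on each strand, while KDM7A held 2 and KDM4A and the printed window of KDM3A 1 each.

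In HepG2, 6 of the 10 demethylases rose and 2 fell from 0 h to 24 h, with changes of small size. KDM7A and KDM3A rose most, by 1.56-fold and 1.47-fold, and KDM4A fell 1.53-fold. KDM4B, KDM4C, KDM5B and KDM6B were the other genes that rose, and KDM2B the other that fell. Among all tested genes 11.4% rose and 18.3% fell. None of the 10 passed the study's further limit of a log2 change of 1 or more in size, against 3.08% of all genes; the greatest size was 0.64. The median log2 fold change of the 10 was 0.16, against -0.03 over all tested genes. The calls of KDM2B, KDM4C and KDM6B, all under 0.23 in absolute log2 fold change, rested on single libraries: without HepG2 0 h replicate 1 their adjusted p was 0.0629, 0.0962 and 0.0591, and without replicate 3 it was 0.0751, 0.0709 and 0.0552, so that 5 genes stayed called. The call of KDM4C was also lost without HepG2 24 h replicate 1 (adjusted p = 0.0567) or 3 (0.0537), and that of KDM6B without any 1 of the 6 HepG2 libraries of 0 h and 24 h (0.0552 to 0.102). Other settings removed calls too: with libraries scaled by size alone KDM4C (adjusted p = 0.124) and KDM6B (0.305) were not called, which left 4 higher and 2 lower, and KDM2B was not called with RLE size factors (0.0702) or when the fit held only the groups compared (0.123).

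At 48 h in HepG2, 7 of the 10 were above 0 h and 2 below, against 13.1% and 14.6% of all genes. Genes with few counts were called less often, whereas KDM7A, the lowest of the 10 in HepG2 at 0 h, had 886 to 970 counts there. With a filter of at least 50 counts in 3 libraries, 2842 of 15019 genes rose and 2794 fell. KDM3A and KDM4B passed the fold limit, which 2.18% of all genes did. KDM7A, KDM4C, KDM5B, KDM2B and KDM2A rose by less, and KDM4A and KDM6B fell. The median log2 fold change was 0.36, against -0.03 over all genes. Between 24 h and 48 h 8 of the 10 changed, against 30.5% of all genes, and 7 of these 8 rose. The rise of KDM7A in that interval (0.17) was not called without HepG2 24 h replicate 2 (adjusted p = 0.0822) or 3 (0.118) or 48 h replicate 2 (0.0832), and KDM4A (0.14, adjusted p = 0.0514) was called in 12 of the 18 fits that left out 1 library.

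In APOA4-KO, 9 of the 10 demethylases rose at 24 h and KDM4A fell, against 21.5% of all genes that rose and 22.8% that fell. KDM7A (3.5-fold) and KDM3A (2.63-fold) passed the fold limit, as did 5.88% of all genes. At 48 h the same 9 were above 0 h and KDM4A below, against 23.9% and 25.9% of all genes. Of these, KDM7A (7.54-fold), KDM3A (3.86-fold), KDM6B (2.44-fold), KDM4B (2.06-fold) and KDM4A (2.11-fold lower) passed the fold limit, which 12.2% of all genes did. The median log2 fold change of the 10 was 0.59 at 24 h and 0.88 at 48 h, against -0.01 and -0.07 over all tested genes. From 24 h to 48 h 8 of the 10 changed, against 41.3% of all genes: 6 rose, and KDM4A and KDM4C fell. The rise of KDM2A (0.09) was not called without APOA4-KO 24 h replicate 1 (adjusted p = 0.0746) or 3 (0.0992) or 48 h replicate 2 (0.0595). The comparisons with 24 h and with 48 h share the 0 h libraries of their line.

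**Figure D2:**
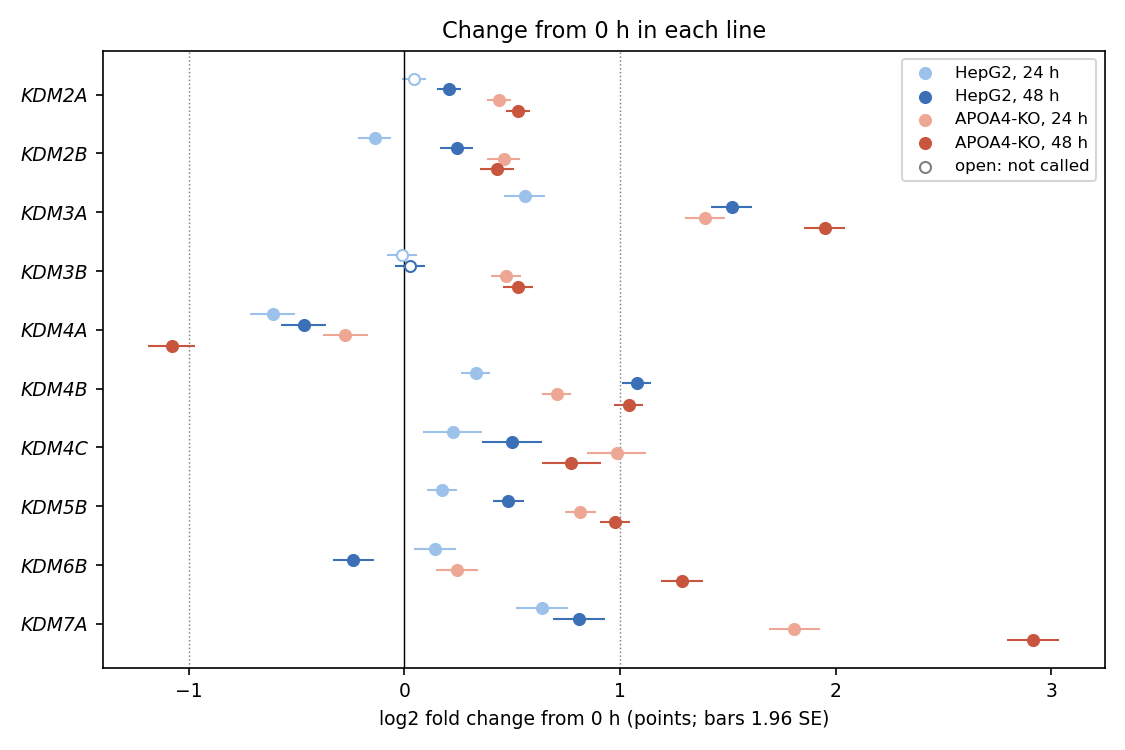
Log2 fold change from 0 h (x axis; points, with bars of the 95% interval) of the 10 demethylases in HepG2 (blue) and APOA4-KO (red) at 24 h (pale) and 48 h (dark), where open points did not pass an adjusted p of 0.05 and dotted lines mark the fold limit. KDM7A in APOA4-KO lies farthest right at both times, and KDM4A is left of 0 in every comparison.

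The H3K9 mono- and dimethyl enzymes KDM3A (chr2:86440647-86492716, plus strand, GRCh38) and KDM3B (chr5:138352596-138437028, plus strand) behaved differently. KDM3A is among the demethylases known as direct HIF targets. FPKM values of KDM3A were 2.85, 2.77 and 2.82 in HepG2 before hypoxia, 3.71, 3.78 and 4.34 after 24 h of it and 7.8, 8.19 and 8.45 after 48 h. Those of the edited line were 3.86, 4.07 and 4.03 before hypoxia, 10.19, 10.65 and 10 after 24 h and 13.57, 13.94 and 13.89 after 48 h. No library of a later time overlapped an earlier one within a line, and APOA4-KO was above HepG2 at each time. The log2 fold change of KDM3A (± SE) was 0.56 ± 0.048 with an adjusted p of 3.2e-08 at 24 h and 1.52 ± 0.048 with an adjusted p of 2.8e-14 at 48 h in HepG2, and 1.39 ± 0.048 with an adjusted p of 3.2e-14 and 1.95 ± 0.049 with an adjusted p of 1.6e-16 in APOA4-KO. APOA4-KO at 24 h was already above HepG2 at 48 h in FPKM.

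KDM3B is the close paralogue of KDM3A. Before hypoxia the HepG2 libraries held 8.86, 9.03 and 9.44 FPKM of KDM3B, which became 8.36, 8.71 and 8.74 by 24 h and 9.68, 9.23 and 9.21 by 48 h. The APOA4-KO libraries held 9.35, 9.43 and 9.37 FPKM before hypoxia, then 13.4, 12.76 and 12.16 by 24 h and 12.03, 12.2 and 12.1 by 48 h. In HepG2 the FPKM of the 3 times lay within 8.36 to 9.68, with overlap between all 3 in the TMM-scaled CPM that the test uses, and in APOA4-KO both later times lay above 0 h. In HepG2 no difference was called at 24 h (-0.01 ± 0.035 with an adjusted p of 0.878) or 48 h (0.03 ± 0.035 with an adjusted p of 0.686, 95% interval -0.04 to 0.10). In APOA4-KO KDM3B rose by 0.47 ± 0.035 with an adjusted p of 1.7e-09 at 24 h and 0.53 ± 0.035 with an adjusted p of 3e-10 at 48 h. Shares of KDM3A in the summed KDM3A and KDM3B FPKM are means ± SD (n = 3). They were 23.6% ± 0.68, 31.4% ± 1.6 and 46.5% ± 1.7 at 0 h, 24 h and 48 h in HepG2. In APOA4-KO they were 29.8% ± 0.52, 44.6% ± 1.2 and 53.3% ± 0.23, and KDM3A had the higher FPKM at 48 h. By counts, which are not per length, KDM3A was already above KDM3B in HepG2 at 48 h (9092 to 10072 against 6063 to 7143). The implied lengths were 13598 bases for KDM3A and 8049 for KDM3B.

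The H3K9 and H3K36 trimethyl enzymes KDM4A (chr1:43650158-43705515, plus strand), KDM4B (chr19:4969113-5153595, plus strand) and KDM4C (chr9:6720863-7175648, plus strand) moved in opposite directions. HepG2 libraries had KDM4A at 10.84, 10.76 and 10.73 FPKM without hypoxia, at 6.35, 6.86 and 6.94 a day later and at 7.58, 8.15 and 7.91 by 48 h. APOA4-KO libraries had it at 8.67, 7.99 and 8.24 FPKM without hypoxia, at 6.71, 6.81 and 6.68 a day later and at 3.85, 3.5 and 3.22 by 48 h. KDM4A was highest in HepG2 at 0 h and lowest in APOA4-KO at 48 h, and neither overlapped another group, while the lines overlapped at 24 h. For KDM4A the log2 fold change was -0.61 ± 0.053 with an adjusted p of 4.4e-08 and -0.47 ± 0.053 with an adjusted p of 1.8e-06 in HepG2 at 24 h and 48 h, and -0.27 ± 0.053 with an adjusted p of 0.00027 and -1.08 ± 0.055 with an adjusted p of 4.6e-12 in APOA4-KO. In GENCODE v29, 48.5% of the exon bases of KDM4A are shared with other genes: 2077 bases with AL451062.3 on the same strand, which had 0 counts in every library, and 464 bases with the antisense KDM4A-AS1, which had 8 to 57 counts. How reads in shared bases were assigned is not stated.

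KDM4B is a further known HIF target. FPKM values of KDM4B were 4.81, 5.02 and 4.88 in HepG2 before hypoxia, 6, 5.66 and 5.95 after 24 h of it and 9.99, 10.7 and 10.66 after 48 h. Those of the edited line were 5.81, 5.59 and 5.67 before hypoxia, 9.37, 8.9 and 9.08 after 24 h and 10.23, 10.71 and 10.54 after 48 h. The lines were apart at 24 h and overlapped in FPKM at 48 h. In HepG2 KDM4B rose mainly after 24 h: the log2 fold change was 0.33 ± 0.034 with an adjusted p of 3.9e-07 at 24 h, 1.08 ± 0.034 with an adjusted p of 3.1e-14 at 48 h and 0.74 ± 0.034 with an adjusted p of 8e-12 between them. In APOA4-KO KDM4B had changed by 0.71 ± 0.034 with an adjusted p of 3.8e-12 at 24 h and 1.04 ± 0.034 with an adjusted p of 9.3e-15 at 48 h.

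KDM4C, the least abundant of the 3 paralogues at 0 h, had its highest level in APOA4-KO at 24 h. Before hypoxia the HepG2 libraries held 1.62, 1.88 and 1.68 FPKM of KDM4C, which became 1.93, 1.9 and 1.92 by 24 h and 2.6, 2.29 and 2.5 by 48 h. The APOA4-KO libraries held 1.9, 2.18 and 2.35 FPKM before hypoxia, then 4.31, 4.22 and 3.97 by 24 h and 3.22, 3.2 and 3.45 by 48 h. In HepG2 the groups rose in order of time, and in APOA4-KO the 24 h libraries lay above those of both other times. The log2 fold change of KDM4C was 0.22 ± 0.07 with an adjusted p of 0.0206 and 0.50 ± 0.07 with an adjusted p of 2e-05 in HepG2 and 0.99 ± 0.07 with an adjusted p of 7.2e-10 and 0.77 ± 0.07 with an adjusted p of 1.9e-08 in APOA4-KO, at 24 h and 48 h. The fall from 24 h to 48 h in APOA4-KO was -0.21 ± 0.069 with an adjusted p of 0.0192, and its adjusted p was 0.0535 to 0.0706 without APOA4-KO 24 h replicate 1 or 2 or 48 h replicate 1 or 2. Of the summed KDM4A, KDM4B and KDM4C FPKM, KDM4A made up 61.9% ± 0.93 (SD, n = 3) in HepG2 before hypoxia, 46.3% ± 1.6 after 24 h and 37.9% ± 0.57 after 48 h, while KDM4B made up 28.2% ± 0.29, 40.5% ± 1.4 and 50.2% ± 0.62. In APOA4-KO the KDM4A share was 51.4% ± 1.3, 33.6% ± 0.66 and 20.4% ± 1.8, and the KDM4B share was 35.3% ± 0.35, 45.5% ± 0.77 and 60.6% ± 1.3.

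**Figure D3:**
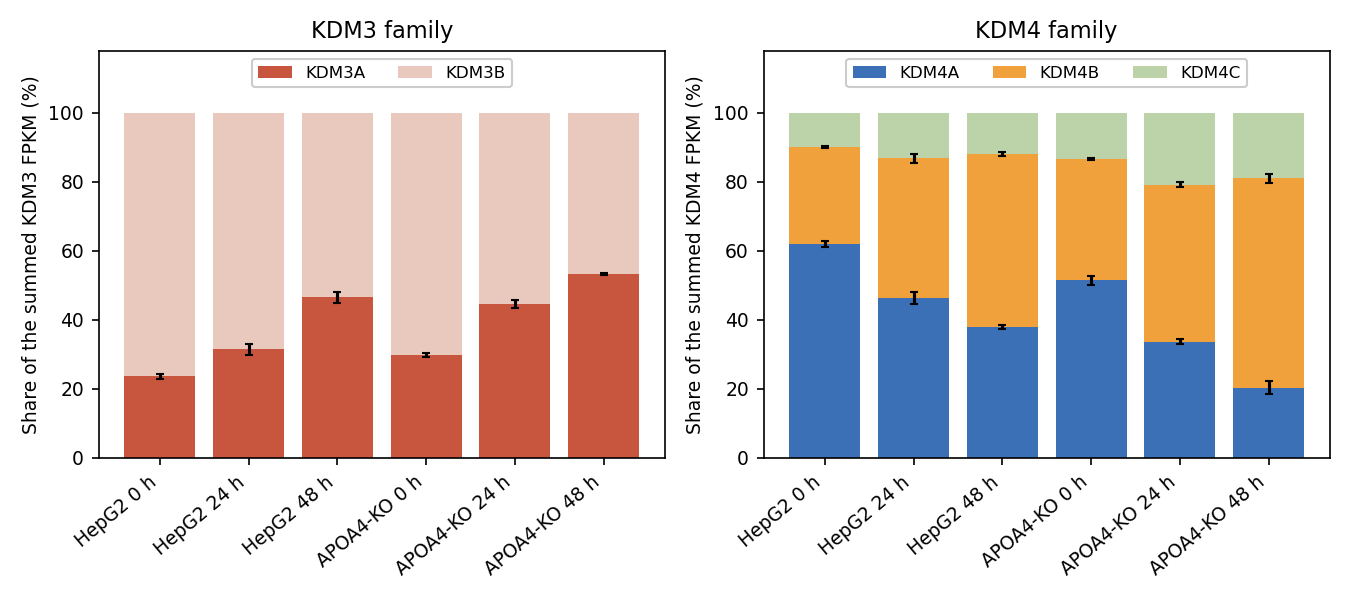
Share (y axis, %) of each paralogue in the summed FPKM of KDM3A and KDM3B (left) and of KDM4A, KDM4B and KDM4C (right) in the 6 groups (x axis). The sums hold only the genes named, and the shares depend on the gene lengths behind FPKM. Bars are means of 3 libraries, and the error bar at the top of a segment is the SD of that segment's share. KDM3A grows from 23.6% to 53.3% from HepG2 at 0 h to APOA4-KO at 48 h, while KDM4A shrinks from 61.9% to 20.4%.

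The H3K36 enzymes KDM2A (chr11:67119269-67258087, plus strand) and KDM2B (chr12:121429097-121581015, minus strand) had narrow ranges. Their group means spanned 0.53 and 0.69 on the log2 CPM scale, against a median of 1.00 over all tested genes. Those genes include ones with few counts, and no median was taken at like counts. HepG2 libraries had KDM2A at 9.19, 8.91 and 9.02 FPKM without hypoxia, at 9.01, 8.54 and 9.04 a day later and at 10.64, 10.62 and 10.4 by 48 h. APOA4-KO libraries had it at 8.72, 8.99 and 9.06 FPKM without hypoxia, at 11.91, 12.16 and 11.58 a day later and at 11.43, 11.64 and 11.55 by 48 h. KDM2A overlapped between the lines at 0 h in FPKM, and the APOA4-KO libraries lay above HepG2 at 24 h and 48 h. The log2 fold change of KDM2A was 0.04 ± 0.029 with an adjusted p of 0.307 at 24 h and 0.21 ± 0.028 with an adjusted p of 1.6e-05 at 48 h in HepG2, and 0.44 ± 0.029 with an adjusted p of 2.1e-10 and 0.53 ± 0.029 with an adjusted p of 1.2e-11 in APOA4-KO.

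KDM2B also recruits the Polycomb complex PRC1.1 to CpG islands. FPKM values of KDM2B were 6.68, 6.33 and 6.79 in HepG2 before hypoxia, 5.83, 5.64 and 5.65 after 24 h of it and 7.69, 8.22 and 7.77 after 48 h. Those of the edited line were 4.89, 5.07 and 4.82 before hypoxia, 6.47, 6.87 and 6.62 after 24 h and 5.92, 6.22 and 5.72 after 48 h. APOA4-KO was below HepG2 at 0 h and 48 h and above it at 24 h. KDM2B changed by -0.14 ± 0.039 with an adjusted p of 0.0118 on the log2 scale in HepG2 at 24 h and by 0.24 ± 0.039 with an adjusted p of 9.5e-05 at 48 h, whereas APOA4-KO gave 0.46 ± 0.039 with an adjusted p of 1.1e-08 and 0.43 ± 0.04 with an adjusted p of 2.6e-08. Of the exon bases of KDM2B, 4.87% are shared with genes on the opposite strand, among them RNF34 (1370 to 2991 counts), and counting by strand is not stated.

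The H3K4 enzyme KDM5B (chr1:202724495-202809470, minus strand) rose in both lines. Before hypoxia the HepG2 libraries held 2.84, 2.83 and 2.73 FPKM of KDM5B, which became 2.91, 2.9 and 3.21 by 24 h and 3.96, 4.01 and 3.89 by 48 h. The APOA4-KO libraries held 3.05, 3.1 and 3.26 FPKM before hypoxia, then 5.53, 5.42 and 5.32 by 24 h and 5.55, 5.5 and 5.58 by 48 h. In APOA4-KO most of the rise was present at 24 h, and in HepG2 most came after 24 h. The log2 fold change of KDM5B was 0.17 ± 0.036 with an adjusted p of 0.00095 and 0.48 ± 0.036 with an adjusted p of 8.6e-09 in HepG2 at 24 h and 48 h, and 0.82 ± 0.036 with an adjusted p of 1.2e-12 and 0.98 ± 0.036 with an adjusted p of 5e-14 in APOA4-KO.

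The H3K27 enzyme KDM6B (chr17:7839904-7854796, plus strand), also called JMJD3, moved in opposite directions in the lines at 48 h. HepG2 libraries had KDM6B at 5.82, 5.7 and 5.86 FPKM without hypoxia, at 6.18, 6.05 and 6.03 a day later and at 4.82, 5.43 and 4.67 by 48 h. APOA4-KO libraries had it at 5.7, 5.19 and 5.5 FPKM without hypoxia, at 6.16, 6.44 and 6.44 a day later and at 12.08, 12.15 and 11.69 by 48 h. The 3 APOA4-KO libraries at 48 h stood apart from the other 15, which lay between 4.67 and 6.44 FPKM. In HepG2 the log2 fold change of KDM6B was 0.14 ± 0.049 with an adjusted p of 0.034 at 24 h and -0.24 ± 0.049 with an adjusted p of 0.00122 at 48 h. In APOA4-KO it was 0.24 ± 0.049 with an adjusted p of 0.00038 at 24 h and 1.29 ± 0.05 with an adjusted p of 8.6e-14 at 48 h, of which 1.04 ± 0.049 with an adjusted p of 5e-12 fell between 24 h and 48 h.

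KDM7A (chr7:140084746-140177035, minus strand), which acts on lower methylation states of H3K9 and H3K27, had the widest range of the 10. FPKM values of KDM7A were 1.14, 1.25 and 1.13 in HepG2 before hypoxia, 1.81, 1.73 and 1.68 after 24 h of it and 2.02, 2.15 and 2.09 after 48 h. Those of the edited line were 1.45, 1.77 and 1.49 before hypoxia, 5.33, 5.41 and 5.44 after 24 h and 10.71, 10.63 and 10.52 after 48 h. KDM7A was the lowest of the 10 in both lines at 0 h and between KDM2A and KDM2B in APOA4-KO at 48 h, where it overlapped KDM4B. The log2 fold change of KDM7A was 0.64 ± 0.061 with an adjusted p of 1.3e-07 and 0.81 ± 0.06 with an adjusted p of 8e-09 in HepG2 at 24 h and 48 h, and 1.81 ± 0.06 with an adjusted p of 2e-14 and 2.92 ± 0.062 with an adjusted p of 1.5e-17 in APOA4-KO. The group means of KDM7A spanned 3.31 on the log2 CPM scale, a range that 3.34% of the tested genes exceeded. KDM3A spanned 2.43 (exceeded by 10.8%) and KDM4A 1.48 (exceeded by 30.3%), while KDM3B spanned 0.56 (exceeded by 80.8%). These shares are over all tested genes, those with few counts included.

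The lines were compared at each time. Before hypoxia 5 of the 10 demethylases were higher in APOA4-KO and 2 lower, against 12.9% and 17.6% of all genes, and all differences were under 0.5 in absolute log2 fold change. KDM3A (0.48 ± 0.048 with an adjusted p of 2.8e-07) and KDM7A (0.39 ± 0.061 with an adjusted p of 5.3e-05) differed most among those higher, and KDM2B (-0.44 ± 0.039 with an adjusted p of 5.9e-08) and KDM4A (-0.40 ± 0.053 with an adjusted p of 9.4e-06) were the lower ones. For KDM2A, KDM3B and KDM6B no difference was called (KDM6B was, without HepG2 48 h replicate 2, at an adjusted p of 0.0491), with 95% intervals of -0.10 to 0.01, -0.05 to 0.09 and -0.20 to -0.01.

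After 24 h of hypoxia 8 of the 10 were higher in APOA4-KO and 0 were called lower by edgeR, against 23.6% and 24.6% of all genes, and the count of lower genes was also 0 at an unadjusted p under 0.05 and with DESeq2. KDM7A (2.96-fold), KDM3A (2.49-fold) and KDM4C (2.07-fold) passed the fold limit, as did 7.77% of all genes. KDM4A and KDM6B overlapped between the lines, with intervals of -0.17 to 0.04 and -0.10 to 0.09. The median log2 difference of the 10 was 0.54, against 0.01 over all genes.

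At 48 h the lines differed for all 10 demethylases, with 8 higher in APOA4-KO and 2 lower, against 23.5% and 27.3% of all genes. KDM7A was 5.65-fold higher, KDM6B 2.67-fold higher and KDM4A 2.02-fold lower, and these passed the fold limit, as did 13.6% of all genes. KDM3A was 1.88-fold higher, and KDM5B, KDM4C, KDM3B and KDM2A were higher by 0.64 ± 0.036, 0.57 ± 0.069, 0.52 ± 0.035 and 0.28 ± 0.028 on the log2 scale. KDM2B was lower (log2 -0.26 ± 0.039 with an adjusted p of 1.7e-05), and KDM4B higher by 0.16 ± 0.034 with an adjusted p of 0.00072, a call that was lost when libraries were scaled by their size alone (0.0055, adjusted p = 0.916). The comparison at 48 h used the same libraries as the changes from 24 h and 0 h to 48 h.

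**Figure D4:**
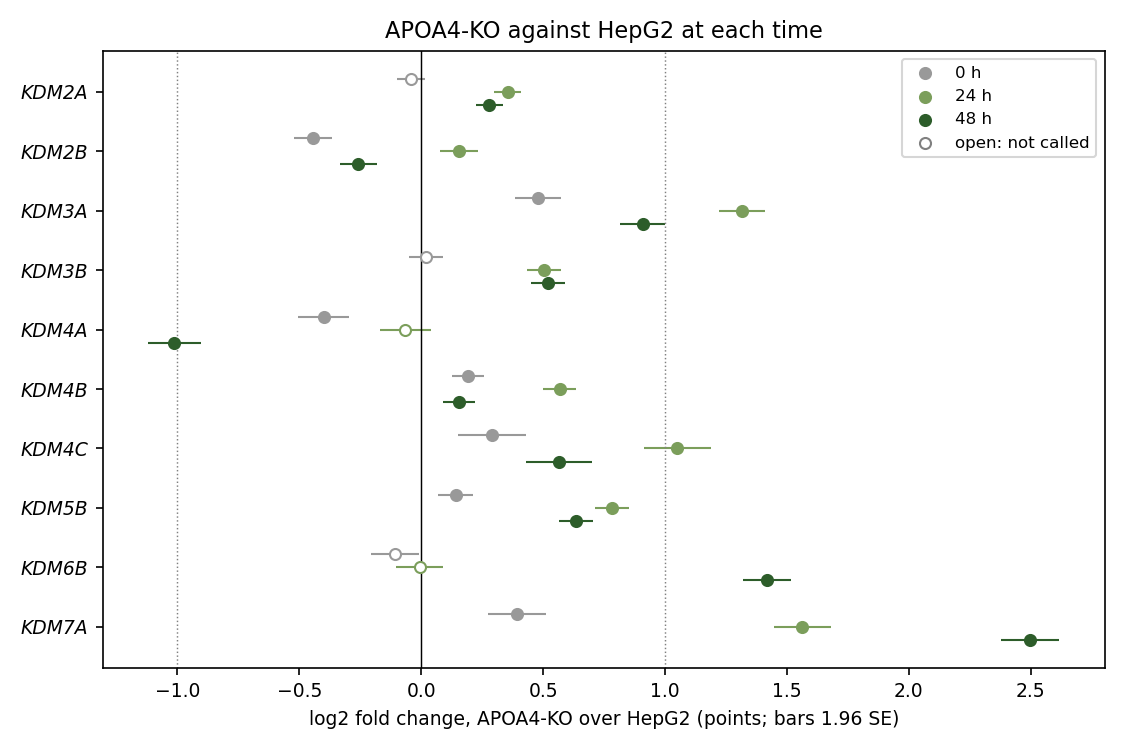
Log2 fold change of APOA4-KO over HepG2 (x axis; points, with bars of the 95% interval) for the 10 demethylases at 0 h (grey), 24 h (light green) and 48 h (dark green); open points did not pass an adjusted p of 0.05. At 0 h the points lie between -0.44 and 0.48, and at 48 h between -1.01 (KDM4A) and 2.50 (KDM7A).

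Whether the change from 0 h differed between the lines was tested with an interaction term, read here as the log2 change in APOA4-KO minus that in HepG2. At 24 h the change differed for 9 of the 10 genes, each with the larger value in APOA4-KO, against 32.2% of all genes in either direction. KDM7A (1.17 ± 0.085 with an adjusted p of 5.3e-09), KDM3A (0.84 ± 0.067 with an adjusted p of 1.9e-08) and KDM4C (0.76 ± 0.099 with an adjusted p of 6.5e-06) differed most, and for KDM6B no difference was called (0.10 ± 0.07 with an adjusted p of 0.327, interval -0.04 to 0.24). For KDM4A the positive value of 0.34 ± 0.075 with an adjusted p of 0.00172 marks a smaller fall in APOA4-KO.

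At 48 h the change differed for 9 of the 10 genes, against 36.4% of all genes, with 8 larger in APOA4-KO. KDM7A (2.105 ± 0.085 with an adjusted p of 6.7e-13) and KDM6B (1.52 ± 0.07 with an adjusted p of 3.8e-12) lay past the fold limit. KDM4A had the opposite sign (-0.61 ± 0.076 with an adjusted p of 2.7e-06), since its fall was deeper in APOA4-KO at 48 h. For KDM4B no difference was called (-0.04 ± 0.048 with an adjusted p of 0.632, interval -0.13 to 0.06), and with scaling by library size alone it was -0.21 (adjusted p = 0.00156), where the median of all genes moved by -0.172. The difference of KDM4C (0.28 ± 0.099 with an adjusted p of 0.0357) was lost on leaving out HepG2 0 h replicate 2, HepG2 48 h replicate 2 or 3, APOA4-KO 0 h replicate 1 or 2, or APOA4-KO 48 h replicate 3, with adjusted p of 0.0511 to 0.114.

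Genes with a like pattern were sought for the 3 demethylases with the widest ranges among 10232 tested genes with a mean of at least 5 CPM, by Pearson's r of log2 CPM over the 18 libraries, which fall into the same 6 groups for every gene. Closest to KDM7A were BCOR (r = 0.994), a subunit of PRC1.1, LRRFIP1 (0.994) and AXIN1 (0.993), a scaffold of the complex that degrades beta-catenin. Of these, BCOR went from 61.4 ± 2.7 (SD, n = 3) in HepG2 at 0 h to 164 ± 4.8 in APOA4-KO at 48 h. Closest to KDM3A were INSIG2 (0.994), a regulator of sterol synthesis, and HK2 (0.993), a glycolytic hexokinase known as a HIF target, with HK2 going from 79.4 ± 2.7 to 908 ± 13 CPM. Closest to KDM4A were MTARC1 (0.982), MTOR (0.973), the growth-control kinase, and ENSG00000216775 (0.973). MTARC1 went from 37.5 ± 2.4 CPM in HepG2 at 0 h to 12.7 ± 0.83 in APOA4-KO at 48 h.

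Related genes were counted on fixed lists, to be read beside the shares of all tested genes: 11.4% rose and 18.3% fell in HepG2 at 24 h and 13.1% and 14.6% by 48 h, and 21.5% rose and 22.8% fell in APOA4-KO at 24 h and 23.9% and 25.9% by 48 h. Whether any list differed from the 10 or from all genes was not tested. The first list holds 19 other JmjC-domain genes. KDM4E had 0 counts in every library, and of the 18 tested genes 4 rose and 5 fell in HepG2 at 48 h, with a median log2 fold change of -0.07, while in APOA4-KO at 48 h 7 rose and 4 fell (median 0.06, or -0.10 with scaling by library size alone). In APOA4-KO at 48 h JMJD6 rose by 1.34 ± 0.045, HR, a demethylase known from hair growth, by 1.11 ± 0.064 and KDM5A, the paralogue of KDM5B, by 0.75 ± 0.048 on the log2 scale, and RIOX1 and KDM8 fell by 1.23 ± 0.14 and 1.11 ± 0.098. HIF1AN, the asparaginyl hydroxylase that restrains HIF, fell by 0.22 ± 0.035. KDM1A and KDM1B, which use flavin in place of iron and 2-oxoglutarate, changed by 0.29 ± 0.034 (called) and 0.09 ± 0.058 (not called).

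Methyltransferases of the same lysines were counted at 48 h, where 13.1% of all genes rose and 14.6% fell in HepG2, and 23.9% and 25.9% in APOA4-KO. Of 7 H3K4 enzymes 1 rose and 3 fell in HepG2 at 48 h, and 5 rose and 1 fell in APOA4-KO, among them KMT2C (1.05 ± 0.065) and KMT2A (0.60 ± 0.036). Of 6 H3K9 enzymes 1 rose and 3 fell in each line, but not the same genes. SUV39H2 rose in HepG2 (0.55 ± 0.11) and fell in APOA4-KO (-0.57 ± 0.11), where SETDB1 was the gene that rose (0.24 ± 0.048). SUV39H1, which places trimethyl marks on H3K9, fell by 0.18 ± 0.059 in HepG2 and by 1.03 ± 0.061 in APOA4-KO, and EHMT2, which places mono- and dimethyl marks, by 0.28 ± 0.030 and 0.60 ± 0.030. Of 6 genes of the H3K27 methyltransferase complex 3 rose and 3 were not called in HepG2 at 48 h, whereas 1 rose and 4 fell in APOA4-KO. At 48 h the catalytic subunit EZH2 rose by 0.45 ± 0.088 in HepG2 and fell by 0.95 ± 0.090 in APOA4-KO. Of 6 H3K36 enzymes 2 rose in HepG2 and 3 rose and 3 fell in APOA4-KO.

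Partners and relatives of the 10 were counted in the same way, against the same shares of all genes. Of 9 PRC1.1 partners of KDM2B 5 rose and 2 fell in HepG2 at 48 h and 7 rose and 2 fell in APOA4-KO, where RYBP changed by 1.54 ± 0.059, BCOR by 1.20 ± 0.035 and RING1 by -0.41 ± 0.066. The TET enzymes, which oxidise methylcytosine with the same cofactors, rose for 2 of 3 genes in HepG2 and 3 of 3 in APOA4-KO at 48 h, with TET1 at 1.08 ± 0.064 and 1.44 ± 0.064. Of 18 genes that make or use 2-oxoglutarate, succinate or fumarate, 15 fell and 3 were not called in HepG2 at 24 h, where 18.3% of all genes fell, and 6 fell and 1 rose by 48 h, where 14.6% fell. In APOA4-KO 12 fell and 1 rose at 24 h, where 22.8% of all genes fell, and 10 fell and 1 rose by 48 h, where 25.9% fell. IDH1, which makes 2-oxoglutarate from isocitrate in the cytosol, fell by 0.82 ± 0.022 in HepG2 at 24 h and by 1.22 ± 0.022 in APOA4-KO at 48 h.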

How the data were processed

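Poly(A) RNA-seq of 18 libraries (HepG2 and APOA4-KO HepG2, 3 per line and time) was analysed from 2 tables. Reads had been trimmed by fastp, aligned by HISAT2 to Ensembl GRCh38.p13 and counted by featureCounts, as the authors state, and the labels also name StringTie without a role. The deposited counts are whole numbers per gene without normalization between libraries. The deposited FPKM values divide these counts by gene length and library total. The labels list dUTP in cDNA synthesis, but whether the libraries keep strand and whether counting used it are not given in the sources used here. Libraries were grouped by line and time from the labels.

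The test was that of edgeR 4.0.16 (R 4.3.3): filterByExpr on the 6 groups (minimum count 10) kept 19743 genes, libraries were scaled with TMM, and a quasi-likelihood model with 1 coefficient per group was fitted to all 18 libraries. Log2 fold changes are given ± SE, 95% intervals use the normal multiple of the SE, and p-values were adjusted by Benjamini-Hochberg over all tested genes in each of 11 comparisons. Rose, fell or called means an adjusted p under 0.05. Shares of all tested genes include genes with few counts, which were called less often. With at least 50 counts in 3 libraries, 4769 of 15019 genes rose and 4920 fell in APOA4-KO at 48 h. The study's limit of an absolute log2 fold change of 1 gave a second call. CPM are TMM-scaled, with a prior count of 2 on the log scale. The fit was tested on simulated counts. Depth was 76481820 to 91604947 counts per library, and the SE of the 10 genes' log2 fold changes lay between 0.028 and 0.099.

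The alternatives were median-ratio (RLE) size factors, library size alone, DESeq2 1.42.0, no filter, a filter of at least 50 counts in 3 libraries, limma 3.58.1 on log2(FPKM + 1), only the groups compared, the replicate number as a block, and each library left out. The text names all 10 demethylases, genes of fixed lists, for the 3 demethylases with the widest range the 3 genes with the highest correlation, APOA4, and genes that share exon bases. One gene that this rule names is not reported here. The 10 genes and the lists were chosen with earlier results of these data known. Gene positions are from GENCODE v29 (GRCh38), which is not the release the authors counted on, and promoter sequences are from RefSeq (GRCh38.p14).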

Additional observations from a re-analysis of the deposited data

Results flagged for a closer look

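The change from 0 h differed between the lines by the interaction test of edgeR for 18 of the 20 pairs of demethylase and time, which marked these values. Of all tested genes 32.2% differed at 24 h and 36.4% at 48 h, and both times share the 0 h libraries. The values are log2 changes in APOA4-KO minus those in HepG2. At 24 h the difference was 0.40 for KDM2A, 0.60 for KDM2B, 0.84 for KDM3A, 0.48 for KDM3B, 0.34 for KDM4A, 0.38 for KDM4B, 0.76 for KDM4C, 0.64 for KDM5B and 1.17 for KDM7A. At 48 h it was 0.32 for KDM2A, 0.19 for KDM2B, 0.43 for KDM3A, 0.50 for KDM3B, -0.61 for KDM4A, 0.28 for KDM4C, 0.49 for KDM5B, 1.52 for KDM6B and 2.105 for KDM7A. The values of KDM2B and KDM4C at 48 h are not called when libraries are scaled by size alone. KDM6B at 48 h fell in HepG2 and rose in APOA4-KO. KDM2B at 24 h had a log2 fold change of -0.14 in HepG2, whose call was lost under several settings, and rose by 0.46 in APOA4-KO. Groups of 3 libraries are too small for a test of single outlying libraries.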

How the results depend on the processing

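With library size alone, the median log2 fold change of all genes moved by over 0.1 in 4 comparisons (-0.158 in APOA4-KO 48 h against 0 h, -0.13 against 24 h, -0.15 between the lines at 48 h and -0.172 in the line difference at 48 h), and the share of higher among called genes moved by over 10 points in 6, as it did with limma on FPKM. It was 26.2% and 24.2% for HepG2 24 h against 0 h (38.4% in the TMM analysis), 76.2% and 77.6% for HepG2 48 h against 24 h (61.2%), 34.4% and 36.1% for APOA4-KO 48 h against 0 h (48.0%), 35.9% and 38.6% for APOA4-KO 48 h against 24 h (52.9%), 34.7% and 34.4% between the lines at 48 h (46.3%), and 32.1% and 33.4% in the line difference at 48 h (51.1%).

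The number of demethylases called in HepG2 24 h against 0 h went from 8 to 5 with limma on FPKM and to between 5 and 8 with a library left out. With limma the 5 were 3 higher and 2 lower, beside 1590 higher and 4976 lower of 13263 genes. DESeq2 called 7 higher and 2 lower, beside 2913 higher and 3526 lower of 33606 genes. In the TMM analysis the 8 stood beside 2244 higher and 3606 lower of 19743 genes. Past the fold limit, limma on log2(FPKM + 1) gave 1 in HepG2 48 h against 0 h (2 in the TMM analysis). It gave 0 in APOA4-KO 48 h against 24 h (2) and 0 in the line difference at 24 h (1). The added 1 makes log2 changes smaller at low FPKM, and its part in these counts was not tested. Library size alone gave 0 in APOA4-KO 48 h against 24 h and 1 in HepG2 48 h against 24 h (0), where a library left out gave 0 to 1.

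The direction turned where the change was near 0. KDM2A was -0.029 with library size alone and -0.026 with limma in HepG2 at 24 h, and -0.042 and -0.039 in APOA4-KO 48 h against 24 h. With DESeq2 KDM2A in HepG2 at 24 h was 0.073 and was called higher (adjusted p = 0.0362). With a library left out, KDM3B ranged from -0.026 to 0.018 in HepG2 at 24 h and from -0.00014 to 0.041 between the lines at 0 h, and KDM6B from -0.013 to 0.034 between the lines at 24 h. KDM3B in HepG2 at 24 h was 0.024 with RLE, 0.019 with DESeq2, 0.0052 with the stricter filter and 0.043 with only the groups compared; in APOA4-KO 48 h against 24 h it was -0.077 with library size alone and -0.070 with limma. Between the lines at 24 h KDM4A was 0.0013 and 0.0039 with these, and KDM6B was 0.060 and 0.052, 0.0024 without the filter, 0.016 with the stricter filter and 0.0088 with only the groups compared. The cause was not tested. Library size alone also removed the calls of KDM4C and KDM6B in HepG2 at 24 h (adjusted p = 0.124 and 0.305), of KDM5B in APOA4-KO 48 h against 24 h (0.544), of KDM4B between the lines at 48 h (0.916), and of KDM2B and KDM4C in the line difference at 48 h (0.89 and 0.483).

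Replicate numbers did not pair the libraries: the deviations of same-numbered libraries correlated between -0.144 and 0.0511. With the replicate block 8 demethylases stayed called in HepG2 24 h against 0 h, 9 in HepG2 48 h and 10 in APOA4-KO at either time.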
